A study of Mus musculus with 9 samples.

Results

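The genes described here are 8 mouse genes that carry iron into cells, store it, release it or control those steps. They were chosen by symbol, and all 8 were found among the 48820 genes of the deposited expression table. They are *Tfrc*, *Slc11a2* and *Steap3* (uptake), *Fth1* and *Ftl1* (storage), *Slc40a1* and *Hamp* (export and the hormone that controls it) and *Ireb2* (regulation). RNA-seq of total RNA was performed on the hearts of 9 wild-type C57BL/6J mice that received no treatment, with 3 hearts each at embryonic day 18.5 (E18.5d), the 1st day after birth (P1d) and the 7th day after birth (P7d). The labels give the hearts as biological replicates, all from male animals. The design asks how the heart's transcripts change from the end of gestation through the first days after birth.

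Cells take up iron bound to transferrin through the transferrin receptor, reduce it in the endosome and move it to the cytosol, where ferritin stores what is not used. Ferroportin is the known route out of the cell, and hepcidin, a hormone made mainly by the liver, removes ferroportin from the cell surface. When iron is scarce, iron regulatory proteins bind hairpins called iron-responsive elements, which protects transferrin receptor mRNA from decay and blocks translation of ferritin and ferroportin mRNA. In the heart, iron serves respiratory chain proteins, heme and myoglobin, and both too little and too much of it harm cardiomyocytes.

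The iron-responsive elements are shown because several of the 8 genes carry sequences that match the target of this shared control. The untranslated regions (UTRs) of GENCODE M21 coding transcripts on GRCm38 were searched on the transcript's strand for a C, 5 bases and the loop CAGTGN, where the 5 bases before the loop had to be able to pair with the 5 after it. The search found 7 elements in 4 of the 8 genes. The loop is in capitals below, and each sequence has 29 bases.
*Tfrc* 3′ UTR, chr16:32631219-32631247, plus strand: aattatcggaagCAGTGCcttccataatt
*Tfrc* 3′ UTR, chr16:32631598-32631626, plus strand: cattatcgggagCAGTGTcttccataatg
*Tfrc* 3′ UTR, chr16:32631663-32631691, plus strand: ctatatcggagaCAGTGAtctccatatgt
*Tfrc* 3′ UTR, chr16:32631710-32631738, plus strand: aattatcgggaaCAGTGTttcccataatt
*Fth1* 5′ UTR, chr19:9982732-9982760, plus strand: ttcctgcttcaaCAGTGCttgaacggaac
*Ftl1* 5′ UTR, chr7:45459779-45459807, minus strand: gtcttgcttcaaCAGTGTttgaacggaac
*Slc40a1* 5′ UTR, chr1:45925465-45925493, minus strand: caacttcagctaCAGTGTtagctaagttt
The 4 elements of *Tfrc* lay in the 3′ UTR, and the elements of *Fth1*, *Ftl1* and *Slc40a1* in the 5′ UTR. Each *Tfrc* element was in 1 of 3 coding transcripts. The element of *Fth1* was in 4 of 5, that of *Ftl1* in 1 of 2 and that of *Slc40a1* in 1 of 4. Levels below are per gene and do not tell these transcripts apart. Among all coding genes, 31 of 20916 (0.148%) held such letters in a 5′ UTR and 129 of 21039 (0.613%) in a 3′ UTR. No match was found in *Slc11a2*, *Steap3*, *Hamp* or *Ireb2*. This does not show that these genes lack an element, because letters whose 5 bases could not all pair were not counted. A match is a description of sequence and not a measured binding site.

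Levels are given in FPKM (sequenced fragments scaled by transcript length in kilobases and by 1e6 mapped fragments in the library). They can be set side by side between genes only as far as the transcript lengths used are right, and those lengths are not given. Steps between low values gave a depth of 25.5 to 45.0 times 1e6 fragments per heart. In 4 hearts (E18.5d replicates 1 and 3, P7d replicates 2 and 3), *Xist* was at 58.03 to 97.03 FPKM and the Y-linked genes *Kdm5d*, *Uty*, *Ddx3y* and *Eif2s3y* were at 0, which goes against the male label. The other 5 hearts had *Xist* at 0.02 to 0.11 FPKM, so sex is uneven over the stages and all 3 P1d hearts carry Y-linked transcripts. P1d replicate 2 stood apart with the highest column sum (1794160, against 1347981 to 1520448 in the other hearts), and results are given with and without these hearts. The cardiomyocyte markers summed to 33550 to 42780 FPKM in every heart, as the tissue label says.

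After a filter at a mean of 1 FPKM, 13618 genes were compared as log2(FPKM + 1) in 1 limma fit, and a gene was called where its Benjamini-Hochberg adjusted p was under 0.05. All 8 iron genes entered the fit, *Hamp* only through its P1d and P7d values. At P1d against E18.5d, 3 of the 8 were higher (*Fth1*, *Slc40a1*, *Hamp*) and 1 was lower (*Tfrc*), where 18.4% of all genes tested were higher and 27.6% lower. At P7d against E18.5d, 3 were higher (*Tfrc*, *Steap3*, *Slc40a1*) and 2 lower (*Ftl1*, *Ireb2*), against 12.5% and 36.9% of all genes. That imbalance holds for the deposited scale. With columns scaled by the median of ratios, 2907 of 13599 genes were higher and 2838 lower at P7d against E18.5d, and of the iron genes 1 was lower. At P7d against P1d, 2 were higher (*Tfrc*, *Steap3*) and 3 lower (*Fth1*, *Ftl1*, *Slc40a1*), against 15.5% and 28.6%. Hearts of the compared stages did not overlap for 4 higher and 2 lower iron genes at P1d against E18.5d (22.1% and 32.3% of all genes), for 3 and 2 at P7d against E18.5d (16.9% and 45.6%), and for 2 and 3 at P7d against P1d (19.3% and 34.3%). Each comparison shares its hearts with the others, so the 3 sets of calls are not independent. Without P1d replicate 2 the counts of iron genes called were the same, and without the 4 hearts with *Xist*, 0 iron genes were called (limma, 1 to 3 per direction at an unadjusted p under 0.05). In whole hearts, fewer cells of a type and less RNA per cell cannot be told apart.

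**Figure D1:**
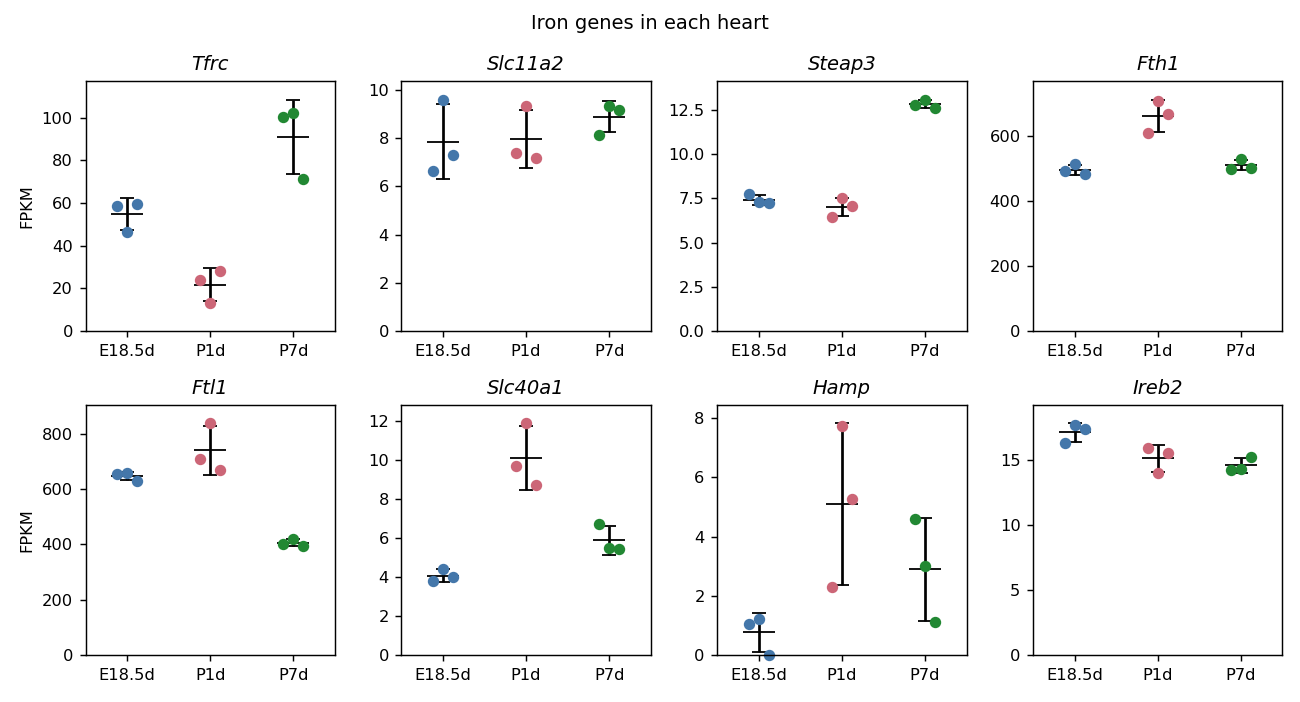
FPKM of the 8 iron genes in each heart (points) at E18.5d, P1d and P7d, with the mean (horizontal line) and SD (bars) of 3 hearts per stage. *Tfrc* dips at P1d and peaks at P7d, *Fth1* and *Slc40a1* peak at P1d, *Steap3* is high at P7d and *Ftl1* is low at P7d.

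The 2 ferritin genes were the most abundant of the 8 at every stage. In FPKM means, *Ftl1* led *Fth1* at E18.5d (647 against 496), they overlapped between hearts at P1d, and *Fth1* led *Ftl1* at P7d (510 against 406). Which of the 2 leads depends on the transcript lengths used for FPKM. *Tfrc* came next at every stage, overlapping *Ireb2* at P1d. Of the lower genes at E18.5d, *Ireb2* stood above *Slc11a2* and *Steap3*, which overlapped, then came *Slc40a1* and *Hamp*. At P1d the hearts of *Slc40a1*, *Slc11a2*, *Steap3* and *Hamp* overlapped from each neighbour to the next, whereas at P7d *Ireb2*, *Steap3*, *Slc11a2*, *Slc40a1* and *Hamp* followed in that order without overlap.

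*Tfrc* (ENSMUSG00000022797.15, chr16:32608920-32632794), the transferrin receptor, had the widest swing among the uptake genes. Its E18.5d hearts had 58.55, 46.31 and 59.52 FPKM, its P1d hearts 24.03, 13.11 and 28.06 FPKM, and its P7d hearts 100.26, 101.95 and 71.1 FPKM. No heart of one stage overlapped another stage. *Tfrc* fell by 1.35 on the log2 scale (SE 0.25, adjusted p = 0.00195, limma) at P1d against E18.5d, and its mean dropped from 54.8 ± 7.36 to 21.7 ± 7.74 FPKM (SD, n = 3). It then rose by 2.06 (SE 0.25, adjusted p = 0.000228) between P1d and P7d, to 91.1 ± 17.3 FPKM, or 4.19 times the P1d mean. Both calls held in 21 of 21 fits that kept at least 2 hearts per stage. Without P1d replicate 2, the lowest heart, the changes were -1.04 (adjusted p = 0.00168) and 1.75 (adjusted p = 0.000164).

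The excess of *Tfrc* at P7d over E18.5d, 0.71 on the log2 scale (SE 0.25, adjusted p = 0.0381), was less firm and passed in 13 of 21 fits. It missed the threshold with columns scaled to an equal sum (0.67, adjusted p = 0.0726), with a covariate for *Xist* (adjusted p = 0.0512), without a filter (adjusted p = 0.0914), and when any 1 of the E18.5d hearts or P7d replicate 1 or 2 was left out (adjusted p = 0.0611 to 0.119). Without the 4 hearts with *Xist*, which leaves 1 heart at E18.5d and 1 at P7d, the *Tfrc* changes were -1.12 (P1d against E18.5d), 1.10 (P7d against E18.5d) and 2.22 (P7d against P1d), at adjusted p = 0.158, 0.261 and 0.0695. The receptor is known to be abundant on dividing and erythroid cells, so their markers are given beside it. The 6 cycling markers summed to 296.5 to 313.0 FPKM at E18.5d, 67.6 to 94.1 at P1d and 128 to 145 at P7d. All 6 were lower at P1d and at P7d than at E18.5d, beside 27.6% and 36.9% of all genes. At P7d, 4 of 6 were higher than at P1d, beside 15.5% of all genes. Of the erythroid markers, the precursor genes *Klf1*, *Gata1* and *Hemgn* were at 0.28 FPKM or less in every heart, while the 13 genes, led by globins, summed to 8424 to 22750, 12740 to 24740 and 8558 to 10420 FPKM at the 3 stages. Of the 8 erythroid markers tested, 1 was higher and 1 lower at P1d than at E18.5d, beside 18.4% and 27.6% of all genes. The part of cycling cells in the *Tfrc* values was not tested.

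*Slc11a2* (ENSMUSG00000023030.16, chr15:100387898-100425072), the divalent metal transporter that moves iron out of the endosome, had no call in any comparison. It measured 6.64, 9.6 and 7.3 FPKM at E18.5d, 7.37, 9.33 and 7.16 FPKM at P1d, and 8.14, 9.34 and 9.18 FPKM at P7d. The hearts of all 3 stages overlapped. The limma change was 0.02 at P1d against E18.5d (95% interval -0.28 to 0.32, adjusted p = 0.902), 0.17 at P7d against E18.5d (-0.13 to 0.47, adjusted p = 0.309) and 0.15 at P7d against P1d (-0.15 to 0.45, adjusted p = 0.391). None of 21 fits put it past the threshold. Without the 4 hearts with *Xist* these changes were -0.25, -0.21 and 0.04. The first was also negative with all hearts kept, at -0.13 with columns scaled to an equal sum, so its sign is not settled. The second ran from 0.07 to 0.335 in the 21 fits and was negative only without those 4 hearts.

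*Steap3* (ENSMUSG00000026389.16, chr1:120190757-120272705), the endosomal reductase that prepares iron for transport, was higher at P7d than at both earlier stages. The E18.5d hearts had 7.75, 7.28 and 7.24 FPKM, the P1d hearts 6.46, 7.5 and 7.07 FPKM, and the P7d hearts 12.75, 13.07 and 12.62 FPKM. The 3 P7d hearts lay close together and above all others. The change was 0.71 (SE 0.07, adjusted p = 4.29e-05, limma) from E18.5d and 0.79 (SE 0.07, adjusted p = 4.2e-05) from P1d, past the threshold in 21 of 21 fits. At P1d against E18.5d it was -0.07 (95% interval -0.23 to 0.08, adjusted p = 0.401). *Steap3* differed by 0.73 and 0.78 at P7d without the 4 hearts with *Xist*, with adjusted p = 0.102 and 0.0668.

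*Fth1* (ENSMUSG00000024661.6, chr19:9980598-9985098), the ferritin heavy chain that oxidises iron for storage, peaked at P1d. It measured 491.87, 513.1 and 484.5 FPKM at E18.5d, 609.92, 709.95 and 668.06 FPKM at P1d, and 499.54, 528.6 and 503.15 FPKM at P7d. The 3 P1d hearts stood above the other 6, and the E18.5d and P7d hearts overlapped. *Fth1* rose by 0.41 (SE 0.07, adjusted p = 0.000888, limma) at P1d, called in 21 of 21 fits, and fell by 0.37 (SE 0.07, adjusted p = 0.00179) from P1d to P7d, called in 20 of 21. The exception was quantile normalization, with -0.10 (adjusted p = 0.121). Without P1d replicate 2 the changes were 0.36 (adjusted p = 0.00226) and -0.32 (adjusted p = 0.00431). At P7d against E18.5d the change was 0.04 (95% interval -0.11 to 0.19, adjusted p = 0.645), but 0.21 to 0.38 and past the threshold on 3 other scales of the columns. Leaving out the 4 hearts with *Xist*, *Fth1* differed by 0.37 (P1d against E18.5d), -0.04 (P7d against E18.5d) and -0.40 (P7d against P1d) (adjusted p = 0.161, 0.910 and 0.159).

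*Ftl1* (ENSMUSG00000050708.16, chr7:45457944-45459884), the ferritin light chain that helps form the iron core, fell between P1d and P7d. The E18.5d hearts had 655.53, 656.65 and 630.19 FPKM, the P1d hearts 709.7, 837.54 and 670.14 FPKM, and the P7d hearts 402.19, 419.67 and 395.19 FPKM. Every P7d heart lay below every earlier heart, and every P1d heart above every E18.5d heart. *Ftl1* fell by 0.67 (SE 0.08, adjusted p = 0.000153, limma) at P7d against E18.5d and by 0.86 (SE 0.08, adjusted p = 6.33e-05) against P1d, in 21 of 21 fits. At P1d against E18.5d its 0.18 (SE 0.08, adjusted p = 0.0886) missed the threshold, and it passed in 4 of 21 fits. Without P1d replicate 2, the highest heart, that change was 0.09 (adjusted p = 0.233). With the 4 hearts with *Xist* left out, *Ftl1* differed by 0.16, -0.71 and -0.87 in the 3 comparisons (adjusted p = 0.551, 0.133 and 0.0707). Reads of the ferritin genes may be shared with near-identical copies, of which *Ftl1-ps1* was listed at 1.6 to 3.29 FPKM, *Fth-ps2* at 0.28 to 3.28 FPKM and the others at 0.27 FPKM or less.

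*Slc40a1* (ENSMUSG00000025993.10, chr1:45908068-45926523), ferroportin, moved opposite to *Tfrc* around birth. Its E18.5d hearts had 3.78, 4.43 and 3.99 FPKM, its P1d hearts 9.7, 11.9 and 8.72 FPKM, and its P7d hearts 6.74, 5.48 and 5.43 FPKM. The stages did not overlap, with E18.5d lowest and P1d highest. *Slc40a1* rose by 1.12 (SE 0.12, adjusted p = 8.42e-05, limma) at P1d, a mean 2.49 times that of E18.5d. It fell by 0.69 (SE 0.12, adjusted p = 0.00157) from P1d to P7d and was still 0.44 (SE 0.12, adjusted p = 0.0128) above E18.5d. All 3 calls held in 21 of 21 fits, and the rise at P1d was 1.01 (adjusted p = 0.000204) without P1d replicate 2. In the 5 hearts without *Xist* the changes were 1.02, -0.51 and 0.51 in the same order (adjusted p = 0.0516, 0.192 and 0.265). Ferroportin is known to be abundant in macrophages that recycle iron. The 13 macrophage markers summed to 83.2 to 100.4 FPKM at E18.5d, 106 to 161 at P1d and 90.9 to 96.8 at P7d. Of the 10 tested, 6 were higher and 0 lower at P1d than at E18.5d (limma, 6 and 0 at an unadjusted p under 0.05). Of all genes, 18.4% were higher and 27.6% lower there. At P7d against P1d, 1 of the 10 was higher and 5 lower, beside 15.5% and 28.6% of all genes. *Cd163* was among the 6 and among the 5. It passed the filter only through its P1d mean of 3.28 FPKM, so its calls are no support. The part of macrophages in the *Slc40a1* change was not tested.

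*Hamp* (ENSMUSG00000050440.8, chr7:30942368-30944032), which encodes hepcidin, was the scarcest of the 8 and rested on few fragments. It was listed at 1.06, 1.22 and 0 FPKM at E18.5d, 2.28, 7.74 and 5.26 FPKM at P1d, and 4.58, 3 and 1.1 FPKM at P7d. The P1d hearts lay above the E18.5d hearts, and the P7d hearts overlapped both. With 410 bases of exon, the highest value was worth about 17.6 fragments, and 3 fragments were worth 0.68 to 1.32 FPKM. *Hamp* rose by 1.76 (SE 0.46, adjusted p = 0.0112, limma) at P1d on the log2(FPKM + 1) scale, and by 1.45 (adjusted p = 0.0400) without P1d replicate 2. The call was lost with a covariate for *Xist* (1.24, adjusted p = 0.0897), and without the 4 hearts with *Xist* the value was 1.35 (adjusted p = 0.183). At P7d, *Hamp* differed by 1.12 from E18.5d (95% interval 0.09 to 2.14, adjusted p = 0.0669) and by -0.65 from P1d (-1.67 to 0.38, adjusted p = 0.278), neither past the threshold, and by 1.33 and -0.02 without the 4 hearts with *Xist*. The 11 liver markers summed to 22.6 to 28.9 FPKM at E18.5d, 20.7 to 93.6 at P1d and 7.96 to 9.57 at P7d, highest in P1d replicate 2, where *Alb* was at 15.88 FPKM and *Hamp* was also highest. In P7d replicate 1, where *Hamp* was at 4.58 FPKM, *Ahsg* was at 5.09, *Apoa2* at 1.63, *Ttr* at 0.7 and *Alb* at 0.38 FPKM. There *Apoa1*, *Apob*, *Afp* and *Cps1* were at 0.08 FPKM or less, and *Fgb*, *Fga* and *Serpina1a* were at 0, as in every P7d heart. Liver tissue as a source of *Hamp* was not tested. Of the 4 liver markers tested, 0 were higher at P1d than at E18.5d in limma (0 at an unadjusted p under 0.05), beside 18.4% of all genes. The paralog *Hamp2* was at 0.5 FPKM or less in every heart.

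*Ireb2* (ENSMUSG00000032293.7, chr9:54863789-54912530), iron regulatory protein 2, had the smallest called change of the 8 genes. It measured 16.37, 17.72 and 17.39 FPKM at E18.5d, 15.94, 13.99 and 15.59 FPKM at P1d, and 14.23, 14.31 and 15.3 FPKM at P7d. The E18.5d hearts lay above all later hearts, while P1d and P7d overlapped. *Ireb2* fell by 0.22 (SE 0.07, adjusted p = 0.0241, limma) at P7d against E18.5d, close to the median of all genes in that comparison (-0.17), and passed in 13 of 21 fits. With columns scaled by the median of ratios it was -0.05 (adjusted p = 0.610). At P1d against E18.5d it was -0.17 (95% interval -0.32 to -0.02, adjusted p = 0.0685), and at P7d against P1d -0.05 (-0.20 to 0.10, adjusted p = 0.583). In the same 5 hearts, without *Xist*, *Ireb2* differed by -0.21, -0.30 and -0.08 in the order P1d to E18.5d, P7d to E18.5d and P7d to P1d (adjusted p = 0.338, 0.319 and 0.713).

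**Figure D2:**
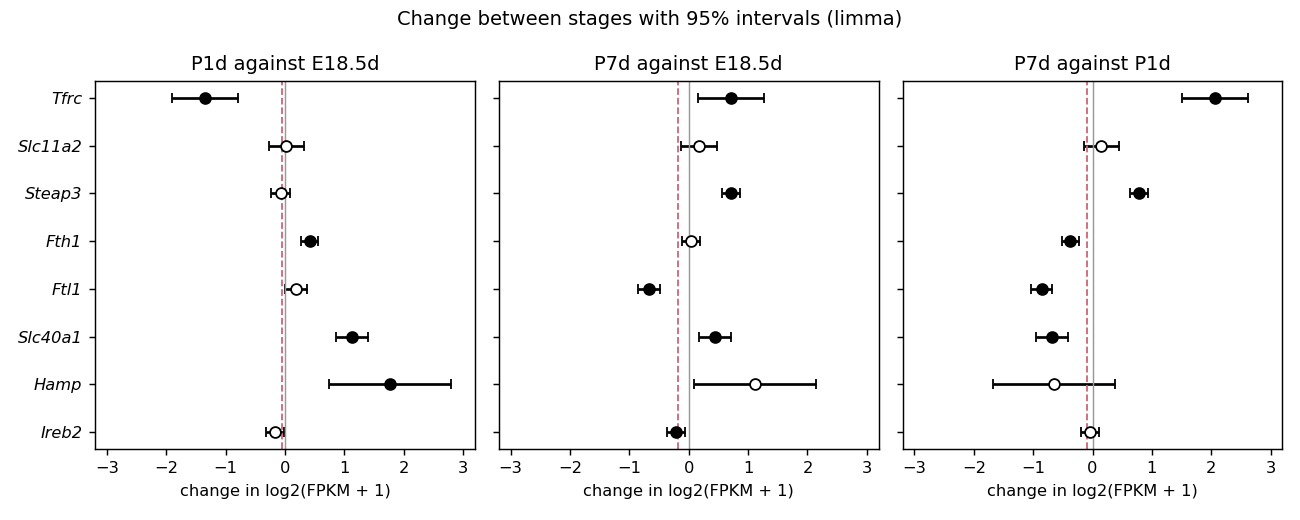
Limma change in log2(FPKM + 1) of the 8 genes in the 3 comparisons (points, filled where the adjusted p is under 0.05) with 95% intervals (bars). The dashed line is the median of all 13618 genes (-0.06, -0.17 and -0.09), and *Tfrc* (-1.35 and 2.06) and *Slc40a1* (1.12 and -0.69) lie on opposite sides of it at P1d against E18.5d and at P7d against P1d.

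Ratios within a heart do not depend on how its column was scaled, apart from the pseudocount. The FPKM ratio of *Fth1* to *Ftl1* was 0.750, 0.781 and 0.769 at E18.5d, 0.859, 0.848 and 0.997 at P1d, and 1.24, 1.26 and 1.27 at P7d. The 3 stages did not overlap, and the ratio rose from stage to stage. Whether the heavy or the light chain transcript is the more abundant depends on the transcript lengths used for FPKM, which are not given. The log2 difference was 0.23 at P1d against E18.5d, 0.71 at P7d against E18.5d and 0.48 between P1d and P7d (exact permutation p = 0.1 each, two-sided, adjusted p = 0.12 over 12 ratio comparisons). With 3 hearts against 3, the exact test cannot go below 0.1, so no ratio could pass 0.05. The ratio of *Tfrc* to *Slc40a1*, the known ways in and out, was 15.5, 10.4 and 14.9 at E18.5d, 2.48, 1.10 and 3.22 at P1d, and 14.9, 18.6 and 13.1 at P7d. The P1d hearts lay far below the others, with log2 differences of -2.48 from E18.5d and 2.75 up to P7d (exact permutation p = 0.1 each). The E18.5d and P7d hearts overlapped (0.27, exact permutation p = 0.4).

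On the log2 scale *Tfrc* to *Fth1* differed by -1.76 at P1d against E18.5d, 0.67 at P7d against E18.5d and 2.44 at P7d against P1d, without overlap (exact permutation p = 0.1 each). *Slc40a1* to *Fth1* differed by 0.71 at P1d and 0.40 at P7d against E18.5d without overlap (exact permutation p = 0.1 each), and by -0.31 at P7d against P1d with overlap (exact permutation p = 0.2). In the 5 hearts without *Xist*, the *Fth1* to *Ftl1* difference at P7d against E18.5d was 0.67 and that of *Tfrc* to *Slc40a1* was 0.59, each from 1 heart against 1.

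**Figure D3:**
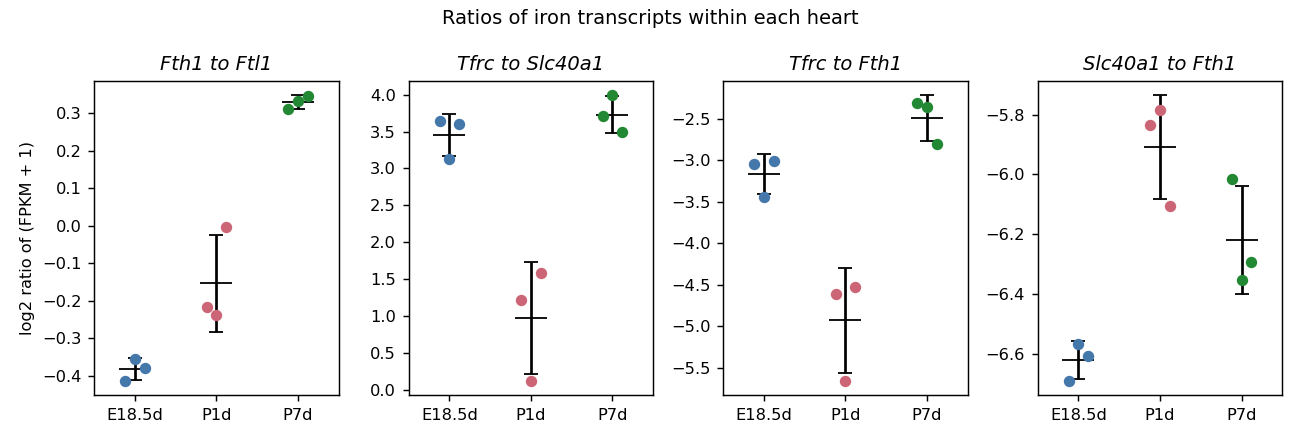
Log2 ratio of (FPKM + 1) for 4 pairs of iron genes in each heart (points) at 3 stages, with the mean (horizontal line) and SD (bars) of 3 hearts. *Fth1* to *Ftl1* climbs from stage to stage without overlap, and *Tfrc* to *Slc40a1* is low in the 3 P1d hearts.

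The FPKM columns summed to different totals and the share of protein-coding nuclear genes in them ran from 29.6% to 37.3%, so the 8 genes were also compared on 4 other scales. The 3 *Slc40a1* calls, the 2 *Steap3* calls, the fall of *Tfrc* at P1d, its rise from P1d to P7d, the rise of *Fth1* at P1d and the lower *Ftl1* at P7d kept their direction and their side of the threshold on all 5 scales. *Hamp* at P1d was higher on all 5 as well (1.66 to 1.81). *Ftl1* at P1d ran from 0.01 with an equal sum to 0.26 with the median of ratios. The median change of all genes was -0.06, -0.17 and -0.09 in the 3 comparisons on the deposited scale and 0.00, -0.02 and 0.00 with the median of ratios. Relative to the median on the deposited scale, *Fth1* stood at 0.21 and *Ireb2* at -0.04 at P7d against E18.5d.

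**Figure D4:**
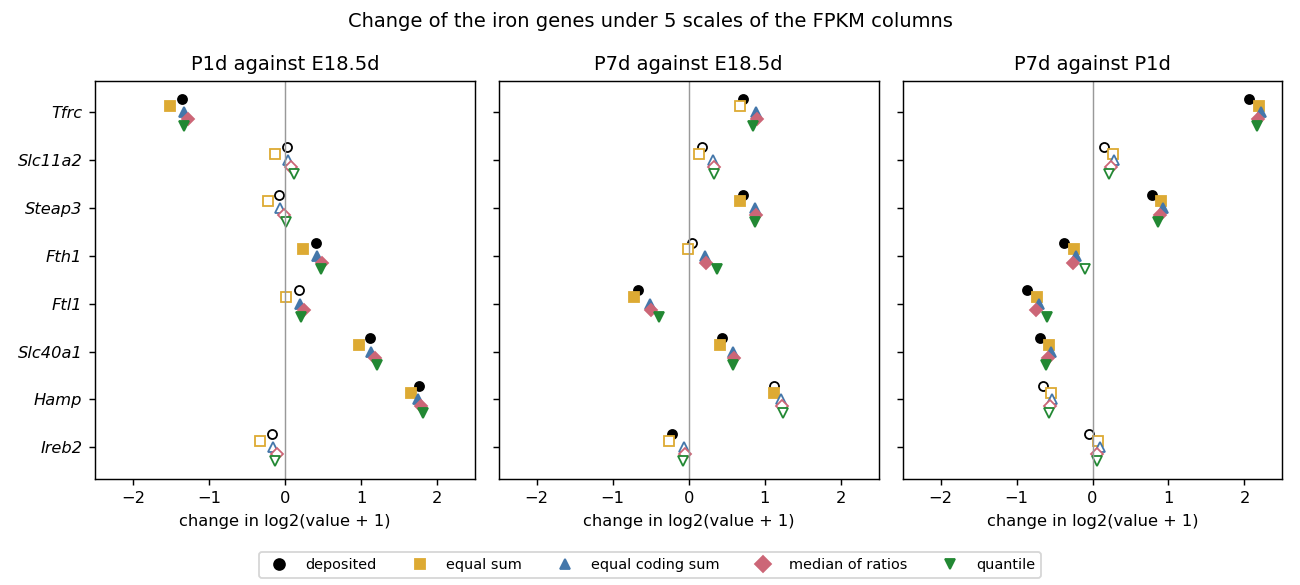
Change of the 8 genes in log2(value + 1) on the deposited scale and with columns scaled to an equal sum, to an equal sum of protein-coding nuclear genes, by the median of ratios or by quantiles (filled where the limma adjusted p is under 0.05). *Tfrc* at P1d, *Slc40a1*, the higher *Steap3* at P7d and the lower *Ftl1* at P7d are filled on all 5 scales. *Steap3* at P1d against E18.5d is open on all 5, and *Fth1* and *Ireb2* at P7d against E18.5d are filled on some.

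Of 13617 other named genes, those most like each iron gene over the 9 hearts (Pearson r of log2(FPKM + 1), a description over hearts that share stages) were as follows. *Tfrc* was most like *Antxr2* (r = 0.99) and *Mrs2* (0.98), *Slc11a2* most like *Mbnl2* (0.93) and *Apc2* (0.92), and *Steap3* most like *Tuba4a* (0.99) and *Fam213b* (0.99). *Fth1* was most like *Gm20632* (1.00) and *Vmac* (0.99), *Ftl1* like *Slc1a5* and *Btf3* (both 1.00), and *Slc40a1* like *Mxd4* and *Nrde2* (both 0.99). *Hamp* was most like *Rasd2* and *Ndufb9* (both 0.96), and *Ireb2* like *D130019J16Rik* (0.98) and *Utp18* (0.97). *Mxd4* shared the P1d peak of *Slc40a1*, with 19.1, 36.9 and 24.1 FPKM at the 3 stages. *Tuba4a* shared the P7d level of *Steap3*, with 38.0, 32.5 and 127 FPKM.

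The wider iron pathway was described with 7 lists that hold 73 genes, the 8 among them, of which 65 were tested. At P1d against E18.5d, 21 of the 65 (32.3%) were higher and 8 (12.3%) lower, beside 18.4% and 27.6% of all genes, with a median change of 0.12 beside -0.06 for all genes. At P7d against E18.5d, 14 (21.5%) were higher and 22 (33.8%) lower, with a median of -0.10 beside -0.17. At P7d against P1d, 8 (12.3%) were higher and 26 (40.0%) lower, with a median of -0.19 beside -0.09. That split is the one of the deposited scale. With an equal sum, 2200 of all 13647 genes were higher and 1727 lower in this comparison, and the counts of the 65 there are not given here. The scale moved these splits and those of all genes together. At P1d the list had 27 higher and 4 lower with the median of ratios, where 3155 and 3102 of all 13599 genes were higher and lower, and 14 and 11 with an equal sum, where 1173 and 4706 of 13647 were. It had 20 and 11 at P7d against E18.5d with the median of ratios, beside 2907 and 2838 of 13599. *Hamp*, *Lcn2*, *Cd163* and *Bmp2* had a stage mean under 1 FPKM and passed the filter through the stages where they were higher, so their calls in these counts are no support for them. Without P1d replicate 2 they were 17 and 6 at P1d, and in the 5 hearts without *Xist* at most 3 genes were called in either direction of any comparison.

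The uptake list (13 tested) had 5 higher and 2 lower at P1d, 5 and 2 at P7d against E18.5d, and 3 and 5 at P7d against P1d, where 18.4% and 27.6%, 12.5% and 36.9%, and 15.5% and 28.6% of all genes were higher and lower. *Steap4*, a plasma membrane metalloreductase of the *Steap3* family, rose from 2.86 ± 0.14 to 7.22 ± 1.00 and 17.9 ± 0.46 FPKM (SD, n = 3), by 1.09 at P1d (adjusted p = 1.96e-05, limma) and 2.29 at P7d (adjusted p = 2.56e-07) against E18.5d. *Slc39a8*, a zinc and iron importer, had 6.41 ± 0.40 FPKM at E18.5d and 7.40 ± 0.81 at P1d (0.18, adjusted p = 0.171), and fell by 1.19 at P7d against E18.5d (adjusted p = 1.83e-05) to 2.26 ± 0.26 FPKM. *Trf*, transferrin itself, fell by 1.16 from P1d to P7d (adjusted p = 0.000673), with 30.8 ± 5.75 and 13.2 ± 0.62 FPKM. *Hfe*, which binds the transferrin receptor, peaked at P1d with 14.3 ± 2.62 FPKM against 6.08 ± 0.59 at E18.5d (1.10, adjusted p = 0.00011) and 8.54 ± 0.74 at P7d. *Lcn2*, which carries iron in siderophores, and *Cd163*, the hemoglobin scavenger receptor of macrophages, also rose at P1d, by 1.38 (adjusted p = 0.000319) and 1.12 (adjusted p = 0.00677), from means of 0.73 and 0.86 FPKM. Both passed the filter only through their P1d means of 3.53 and 3.28 FPKM, the stage where they were called.

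The storage list (5 tested) had 2 higher and 0 lower at P1d, beside 18.4% and 27.6% of all genes. At P7d against P1d it had 0 higher and 5 lower, beside 15.5% and 28.6%. Both counts of 0 were the same at an unadjusted p under 0.05 (limma). *Pcbp1*, 1 of the 5, fell by 0.19 (adjusted p = 0.0396, limma), a call lost in 15 of the other fits. On the other scales 3 or 4 of the 5 were lower at P7d against P1d. *Ncoa4*, the receptor that sends ferritin to the lysosome, rose by 0.27 at P1d (adjusted p = 0.0261, limma) and fell by 0.61 at P7d against P1d (adjusted p = 0.000462), with 48.7 ± 0.66, 59.2 ± 6.73 and 38.4 ± 2.82 FPKM (SD, n = 3). The rise was lost in 6 of the other fits, 1 of them without P1d replicate 2. *Pcbp2*, an iron chaperone for ferritin, fell by 0.41 between P1d and P7d (adjusted p = 0.000186), a call lost with an equal column sum. At P7d against E18.5d the storage list had 4 lower and 0 higher, beside 36.9% and 12.5% of all genes. With the median of ratios it had 1 higher and 2 lower, beside 2907 and 2838 of 13599 genes. *Ftmt*, mitochondrial ferritin, was listed at 0 in every heart.

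The export list had all 3 tested genes higher at P1d, where 18.4% of all genes were, and all 3 lower at P7d than at P1d, where 28.6% were, with 2 of 3 in each when columns had an equal sum. It had 2 higher at P7d against E18.5d (*Slc40a1*, *Cp*) and 1 lower (*Heph*, -0.27, adjusted p = 0.0103, limma), beside 12.5% and 36.9% of all genes. *Cp*, ceruloplasmin, which oxidises iron leaving through ferroportin, had 6.44, 6.84 and 3.82 FPKM at E18.5d, 16.24, 16.44 and 14.94 at P1d and 9.9, 10.66 and 10.96 at P7d. Its stages did not overlap, and it rose by 1.36 at P1d (SE 0.16, adjusted p = 0.000145, limma) as *Slc40a1* did. Its fall of 0.55 to P7d (adjusted p = 0.0192) was lost in 6 of the other fits. *Heph*, a membrane ferroxidase, moved less, from 10.4 ± 0.37 to 12.6 ± 0.92 and 8.43 ± 0.41 FPKM (SD, n = 3). Its 0.25 at P1d (adjusted p = 0.0179) was lost with an equal column sum, with the *Xist* covariate, and without E18.5d replicate 2 or P1d replicate 2. *Hephl1* was at 0.02 FPKM or less.

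Among the regulators (8 tested), 3 were higher and 1 lower at P1d, beside 18.4% and 27.6% of all genes. They numbered 1 and 2 at P7d against E18.5d (12.5% and 36.9%), and 1 and 1 at P7d against P1d (15.5% and 28.6%). *Hamp* was 1 of the 3 higher at P1d. *Bmp2* was the lower gene at P1d and 1 of the 2 lower at P7d against E18.5d. With means of 0.76 FPKM at E18.5d (*Hamp*) and 0.72 at P7d (*Bmp2*), both passed the filter through the stages where they were higher. Their calls are therefore no support. *Fbxl5*, the iron-sensing ubiquitin ligase subunit that marks iron regulatory proteins for degradation, rose by 0.46 at P1d (SE 0.07, adjusted p = 0.000921, limma) and fell by 0.63 to P7d (adjusted p = 0.000186), with 24.8 ± 2.56, 34.3 ± 0.57 and 21.8 ± 0.45 FPKM (SD, n = 3). *Aco1*, iron regulatory protein 1, was at 23.2 to 26.7 FPKM in the E18.5d and P1d hearts and 22.8 to 24.9 at P7d, with a change of 0.01 at P1d (adjusted p = 0.956). *Hjv*, a co-receptor for hepcidin induction that muscle also makes, rose by 1.48 at P7d against E18.5d (SE 0.13, adjusted p = 2.41e-05), from 13.0 ± 0.62 to 38.0 ± 3.06 FPKM. Its call at P1d (0.35, adjusted p = 0.0494) was lost in 14 of the other fits. *Tmprss6*, which cleaves that co-receptor, was at 0.16 FPKM or less.

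**Figure D5:**
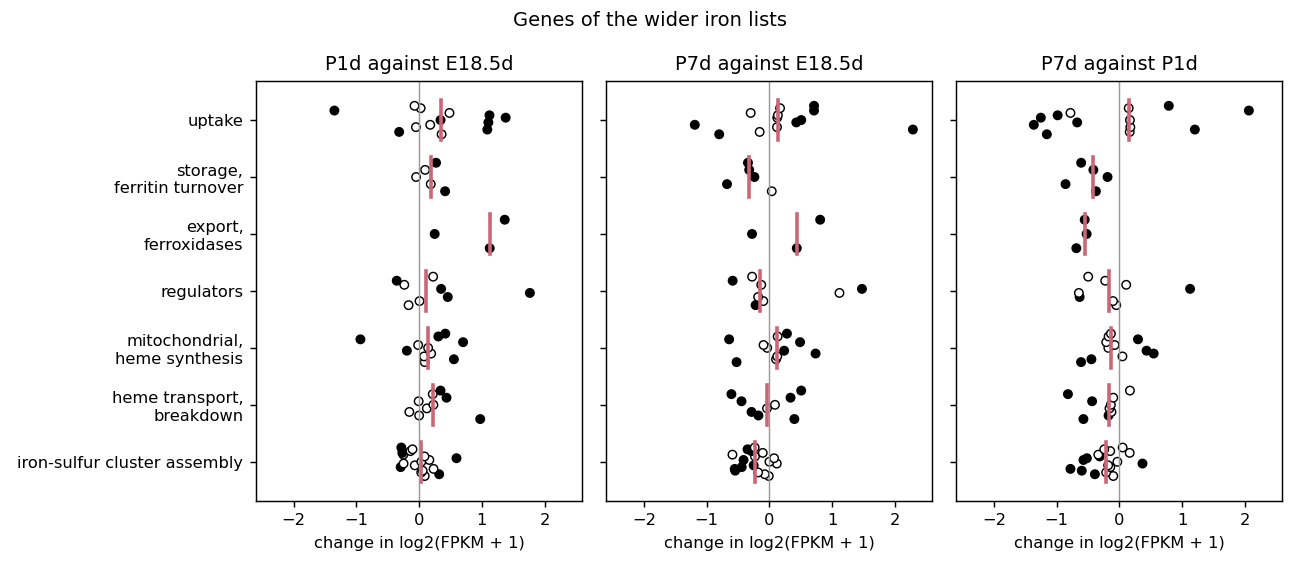
Limma change in log2(FPKM + 1) of the genes of 7 iron lists (points, filled where the adjusted p is under 0.05), with the list's median as a vertical bar. The 3 export genes are all to the right of 0 at P1d against E18.5d, and all 5 storage genes are to the left of 0 at P7d against P1d.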

How the data were processed

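RNA-seq of 9 mouse hearts (3 each at E18.5d, P1d and P7d, grouped by their labels) was used. The authors deposited FPKM values of 48820 genes, rounded to 2 decimals, and the submitters' processing notes name STAR and GRCm38/mm10. The counting tool and annotation are not given in the sources used here, and the supplementary methods on transcriptomics, which may name them, were not used. Identifiers were named by GENCODE M21, which holds 48144 of them without version and 40692 in the same version, and *Hjv* and *Fdx2* (*Hfe2* and *Fdx1l* there) kept the table's symbols. Values were transformed to log2(FPKM + 1) and genes averaging 1 FPKM or more entered a limma fit of all hearts without covariates (R 4.3.3, limma 3.58.1, functions lmFit, contrasts.fit and eBayes with trend), a method checked on simulated data. The log2(FPKM + 1) scale understates the change of low genes. Ratios were compared by exact two-sided permutation (scipy 1.17.1, under Python 3.11.15 with pandas 2.3.3 and numpy 2.4.6), and matplotlib 3.10.9 drew the figures.

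Since FPKM hold no counts, depth was estimated from the spacing of low values, of which 91.1% to 93.8% were whole fragments at the chosen depth, against 27.0% to 28.3% over all depths tried, so fragment numbers are approximate. The genes and lists were chosen with earlier results of these data known. Beside the 8 genes, up to 3 changes per list, comparison and direction were named among called genes whose hearts did not overlap, with the 2 genes most like each member, and list members without a call were added after their values were seen. Alternatives were a pseudocount of 0.1, other filters, 4 column scales, eBayes without trend, only the stages compared, a replicate block, a covariate for *Xist* above 1 FPKM, and leaving out hearts. In the main fit, limma p-values rest on 1 spread per gene, pooled over all 9 hearts and moderated across genes. That spread is not the one of the compared stages alone. Permutation p-values rest on the 3 hearts of each compared stage.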

Additional observations from a re-analysis of the deposited data

How the results depend on the processing

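Of 501 refits of single iron genes, 444 kept their direction and their side of the threshold, 32 lost and 11 gained a call, and 14 changed sign. The sign changes were *Slc11a2* at P1d against E18.5d (-0.13 with an equal sum, -0.0587 with the *Xist* covariate, -0.25 without the 4 hearts with *Xist*, -0.084 to 0.161 without 1 heart) and at P7d against E18.5d (-0.21 without those 4), *Steap3* at P1d (0.0169, quantile), *Fth1* at P7d against E18.5d (-0.0038 with an equal sum, -0.0386 without those 4) and *Ireb2* at P7d against P1d (0.072 equal sum, 0.0946 coding sum, 0.0547 median of ratios, 0.0534 quantile). No gene changed sign where it was called. Iron genes lower at P7d against E18.5d numbered 1 with an equal sum, coding sum, median of ratios or quantiles, and 1 to 2 without 1 heart. Without the 4 hearts with *Xist*, 0 iron genes were called by limma in any comparison (2 higher and 1 lower, 1 and 1, and 2 and 3 at an unadjusted p under 0.05), and ratio differences at P7d against E18.5d were 0.67 (*Fth1* to *Ftl1*), 0.59 (*Tfrc* to *Slc40a1*), 1.14 (*Tfrc* to *Fth1*) and 0.55 (*Slc40a1* to *Fth1*, -0.11 at P7d against P1d).

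Over all genes, those higher and lower at P1d against E18.5d numbered 2505 and 3755, but 1173 higher with an equal sum, 1607 higher with the *Xist* covariate, and 246 and 576 without the 4 hearts. At P7d against E18.5d, 1706 and 5025 became 2755 and 2864 with the coding sum, 2907 and 2838 with the median of ratios, 2898 and 2912 with quantiles, and 103 and 120 without the 4 hearts. At P7d against P1d, 2112 and 3901 became 3296 and 2232 with the coding sum, 1727 lower with an equal sum, 2438 lower with the *Xist* covariate, and 75 and 109 without the 4 hearts. The cause of these shifts was not tested. The fit without the 4 hearts differs both in the number of hearts and in *Xist*, and these cannot be told apart there. The labels share replicate numbers, but hearts with the same number correlated at only -0.06 to 0.11 after removing stage means, so the numbers are not taken as pairs. With the replicate block, 3 iron genes were higher and 1 lower at P1d, 3 and 2 at P7d against E18.5d, and 2 and 3 at P7d against P1d, as without it. Of the 8 genes, *Hamp* rested on the fewest fragments, and 3 hearts per stage limit every interval.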

Other observations

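Iron inside the mitochondrion and heme were covered by other lists. Of 11 mitochondrial iron and heme synthesis genes tested, 4 were higher and 2 lower at P1d, 4 and 2 at P7d against E18.5d, and 3 and 2 at P7d against P1d, where 18.4% and 27.6%, 12.5% and 36.9%, and 15.5% and 28.6% of all genes were higher and lower. *Alas1*, the first enzyme of heme synthesis outside erythroid cells, rose by 0.74 at P7d against E18.5d (SE 0.07, adjusted p = 4.66e-05, limma), from 98.4 ± 8.38 through 112 ± 3.95 to 165 ± 9.30 FPKM (SD, n = 3). *Cpox*, a later enzyme of the same path, fell by 0.94 at P1d (SE 0.09, adjusted p = 4.66e-05), from 12.1 ± 0.87 to 5.86 ± 0.65 FPKM, and *Urod* rose by 0.70 (adjusted p = 0.000691). *Fech*, which inserts iron into heme, rose by 0.42 at P1d (adjusted p = 0.000798), a call lost with an equal column sum. Of 9 heme transport and breakdown genes tested, 3 were higher and 0 lower at P1d (limma, 4 and 0 at an unadjusted p under 0.05). They numbered 3 and 4 at P7d against E18.5d, and 0 and 4 at P7d against P1d (0 and 4 unadjusted). Of all genes, 18.4% and 27.6%, 12.5% and 36.9%, and 15.5% and 28.6% were higher and lower. With the median of ratios, 1 of these 9 was lower at P7d against E18.5d and 2 at P7d against P1d. *Hmox1*, which breaks heme down and frees its iron, had 6.64, 9.11 and 7.14 FPKM at E18.5d, 16.85, 15.78 and 14.88 at P1d and 10.29, 11.12 and 9.56 at P7d. These stages did not overlap, and *Hmox1* rose by 0.97 at P1d (SE 0.11, adjusted p = 0.00011) and fell by 0.57 to P7d (adjusted p = 0.00238). *Slc48a1*, a heme transporter of the endolysosome, rose by 0.44 at P1d (adjusted p = 0.00228). *Abcg2*, an exporter that carries porphyrins among other substrates, fell by 0.60 at P7d against E18.5d (adjusted p = 0.00029) and by 0.82 against P1d (adjusted p = 7.62e-05), with 30.7 ± 1.09, 35.8 ± 0.89 and 19.9 ± 2.34 FPKM.

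Of 17 iron-sulfur cluster genes tested, 2 were higher and 3 lower at P1d, beside 18.4% and 27.6% of all genes. They numbered 0 and 7 at P7d against E18.5d (limma, 0 and 9 at an unadjusted p under 0.05), beside 12.5% and 36.9%. At P7d against P1d, 1 was higher and 6 lower, beside 15.5% and 28.6%. With the median of ratios, 3 were higher and 4 lower at P7d against E18.5d, beside 2907 and 2838 of 13599 genes. *Hspa9*, a mitochondrial chaperone of this path, fell by 0.44 at P7d against E18.5d (SE 0.06, adjusted p = 0.000209, limma), from 248 to 183 FPKM. Its co-chaperone *Hscb* fell by 0.55 (adjusted p = 0.00995), and *Lyrm4* by 0.54 (adjusted p = 0.002). *Iba57* rose by 0.59 at P1d (adjusted p = 0.0003) and *Iscu*, the scaffold protein, by 0.32 (adjusted p = 0.00111), the latter lost with an equal column sum.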
